A study of Rattus norvegicus with 16 samples.

Results

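The miR-125 family is a set of microRNAs (miRNAs), short RNAs that guide Argonaute proteins to messenger RNAs and repress them. Its members here were all listed miRNAs named rno-miR-125a or rno-miR-125b with any locus or arm suffix, which gave 5 of the 722 rat miRNAs counted: miR-125a-5p, miR-125a-3p, miR-125b-5p, miR-125b-1-3p and miR-125b-2-3p. All 5 passed the filter on low counts. They were counted by small RNA sequencing in 16 rat brain libraries, 4 for each combination of line and region. The groups were high responder (HR) amygdala, low responder (LR) amygdala, HR dorsal raphe and LR dorsal raphe. HR and LR rats are known as lines bred for a high or a low locomotor response to a new environment. The amygdala is a forebrain region of fear and emotional learning, and the dorsal raphe is the midbrain nucleus that sends serotonin to the forebrain. All rats were 60 days old, no treatment is named in the labels, and neither line stands for an untreated or unselected rat. Whether replicates are separate animals is not stated in the labels. The p-values therefore measure only how far these samples spread, which may be technical.

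A miRNA gene is transcribed as a hairpin, and the enzymes Drosha and Dicer cut it into a duplex of a 5p and a 3p arm. Argonaute usually keeps 1 arm, the mature arm, and the other, the passenger arm, is mostly degraded. In this family the 5p arm is the mature one. miR-125 is the vertebrate relative of lin-4, a regulator of developmental timing in Caenorhabditis elegans, and in mouse it represses the RNA-binding protein Lin28. In rodent neurons miR-125b has been tied to the fragile X protein FMRP and to the NMDA receptor subunit NR2A, and to the shape of dendritic spines.

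The sequences below are the mature arms and a relative with the same seed. They are shown because they define which miRNAs can pair with the same targets. Capitals mark the seed, bases 2 to 8 from the 5′ end, which chiefly decides target choice. All sequences are RefSeq's, from the table for build GRCr8, in which all 5 members were found.

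miR-125a-5p: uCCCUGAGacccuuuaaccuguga
miR-125b-5p: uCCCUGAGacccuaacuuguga
miR-351-5p: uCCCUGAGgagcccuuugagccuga

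miR-125a-5p and miR-125b-5p were identical over their first 13 and last 5 bases and stood 3 single-base edits apart. miR-351-5p shared only their first 8 bases. It was the only other listed miRNA with this seed among those matched to the RefSeq table.

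The passenger arms follow, with bases 2 to 8 again in capitals. They are shown because, unlike the mature arm, they tell the miR-125b genes apart.

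miR-125a-3p: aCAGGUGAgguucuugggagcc
miR-125b-1-3p: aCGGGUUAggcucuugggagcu
miR-125b-2-3p: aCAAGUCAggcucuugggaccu

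Counting from the 5′ end and giving the base of miR-125b-1-3p first, miR-125b-1-3p and miR-125b-2-3p differed by G3A, G4A, U7C and G20C. No other matched miRNA shared bases 2 to 8 with a passenger arm. miR-125b-5p is the same molecule from either gene, so its count is a sum over Mir125b1 and Mir125b2, whereas each miR-125b 3p arm reports on 1 gene. The hairpins of Mir125a and Mir125b1 show how the arms lie, with both arms in capitals.

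Mir125a hairpin: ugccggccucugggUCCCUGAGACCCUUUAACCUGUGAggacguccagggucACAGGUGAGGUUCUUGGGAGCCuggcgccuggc
Mir125b1 hairpin: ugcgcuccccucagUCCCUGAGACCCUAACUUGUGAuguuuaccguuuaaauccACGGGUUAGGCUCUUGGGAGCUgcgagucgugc

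In RefSeq's GRCr8 annotation the nearest miRNA genes to Mir125a are Mirlet7e, Mir3596c and Mir99b, and Mir125a lies inside the span of Spaca6. Those nearest to Mir125b1 are Mirlet7a-2, Mir3596a and Mir100, and it lies inside the spans of Mir100hgl and the long non-coding RNA Lnc215. Those nearest to Mir125b2 are Mir3588, Mirlet7c1 and Mir99a, and it lies inside the long non-coding RNA LOC103693508. miR-3588, listed from the opposite strand of Mir125b2, is the exact reverse complement of miR-125b-5p. It held 0 to 18 counts per library, at most 0.0688% of the miR-125b-5p count.

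The libraries held 1741167 to 8134915 counts. Levels are given in counts per 1000000 (CPM), scaled between libraries with TMM (trimmed mean of M values). At this depth 3 counts, taken as the floor of detection, stood for 0.369 to 1.72 unscaled CPM (counting error alone). The libraries farthest from their group means over all miRNAs tested were LR dorsal raphe replicate 4 and HR amygdala replicate 1, with root mean square deviations of 1.03 and 0.968 on the log2 scale, and they were also the shallowest with 2096188 and 1741167 counts. HR amygdala replicate 4 came next with a deviation of 0.880, at 4713850 counts. The TMM factor was 0.596 in LR dorsal raphe replicate 4, which raises all its scaled levels, against 0.871 to 1.27 in the other 15 libraries. The 10 hindbrain (Hox cluster) marker miRNAs summed to 56.9 to 193 CPM in HR amygdala and 36.1 to 144 CPM in LR amygdala, against 389 to 480 CPM in HR dorsal raphe and 423 to 3935 CPM in LR dorsal raphe, the 3935 CPM being in replicate 4. That order goes with the region labels, since these miRNAs mark brain stem and not forebrain. In pieces of tissue, fewer cells that hold a miRNA and less of it per cell cannot be told apart.

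The mature arm miR-125b-5p dominated the family. Over the 16 libraries rno-miR-125b-5p averaged 24563 ± 8471 CPM (SD, n = 16) and ranked between place 3 and place 25 of the 722 miRNAs. miR-125a-5p averaged 9613 ± 3326 CPM and ranked between places 20 and 52. Among the passenger arms, miR-125b-2-3p averaged 731 ± 397 CPM, rno-miR-125b-1-3p 186 ± 87.2 CPM and miR-125a-3p 19.9 ± 6.71 CPM. Each read covers a whole miRNA, so these levels need no scaling by length. The 5 members together made up 2.20 ± 1.01% of a library's counts in HR amygdala and 3.33 ± 0.336% in LR amygdala, against 4.26 ± 0.313% in HR dorsal raphe and 4.38 ± 1.71% in LR dorsal raphe (SD, n = 4 each). miR-351-5p, with the same seed but from another gene, averaged 163 ± 33.8 CPM. Of the summed counts of the 3 miRNAs with this seed, miR-125b-5p held 65.7% to 79.4%, miR-125a-5p 18.9% to 33.7% and miR-351-5p 0.277% to 1.69%.

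**Figure D1:**
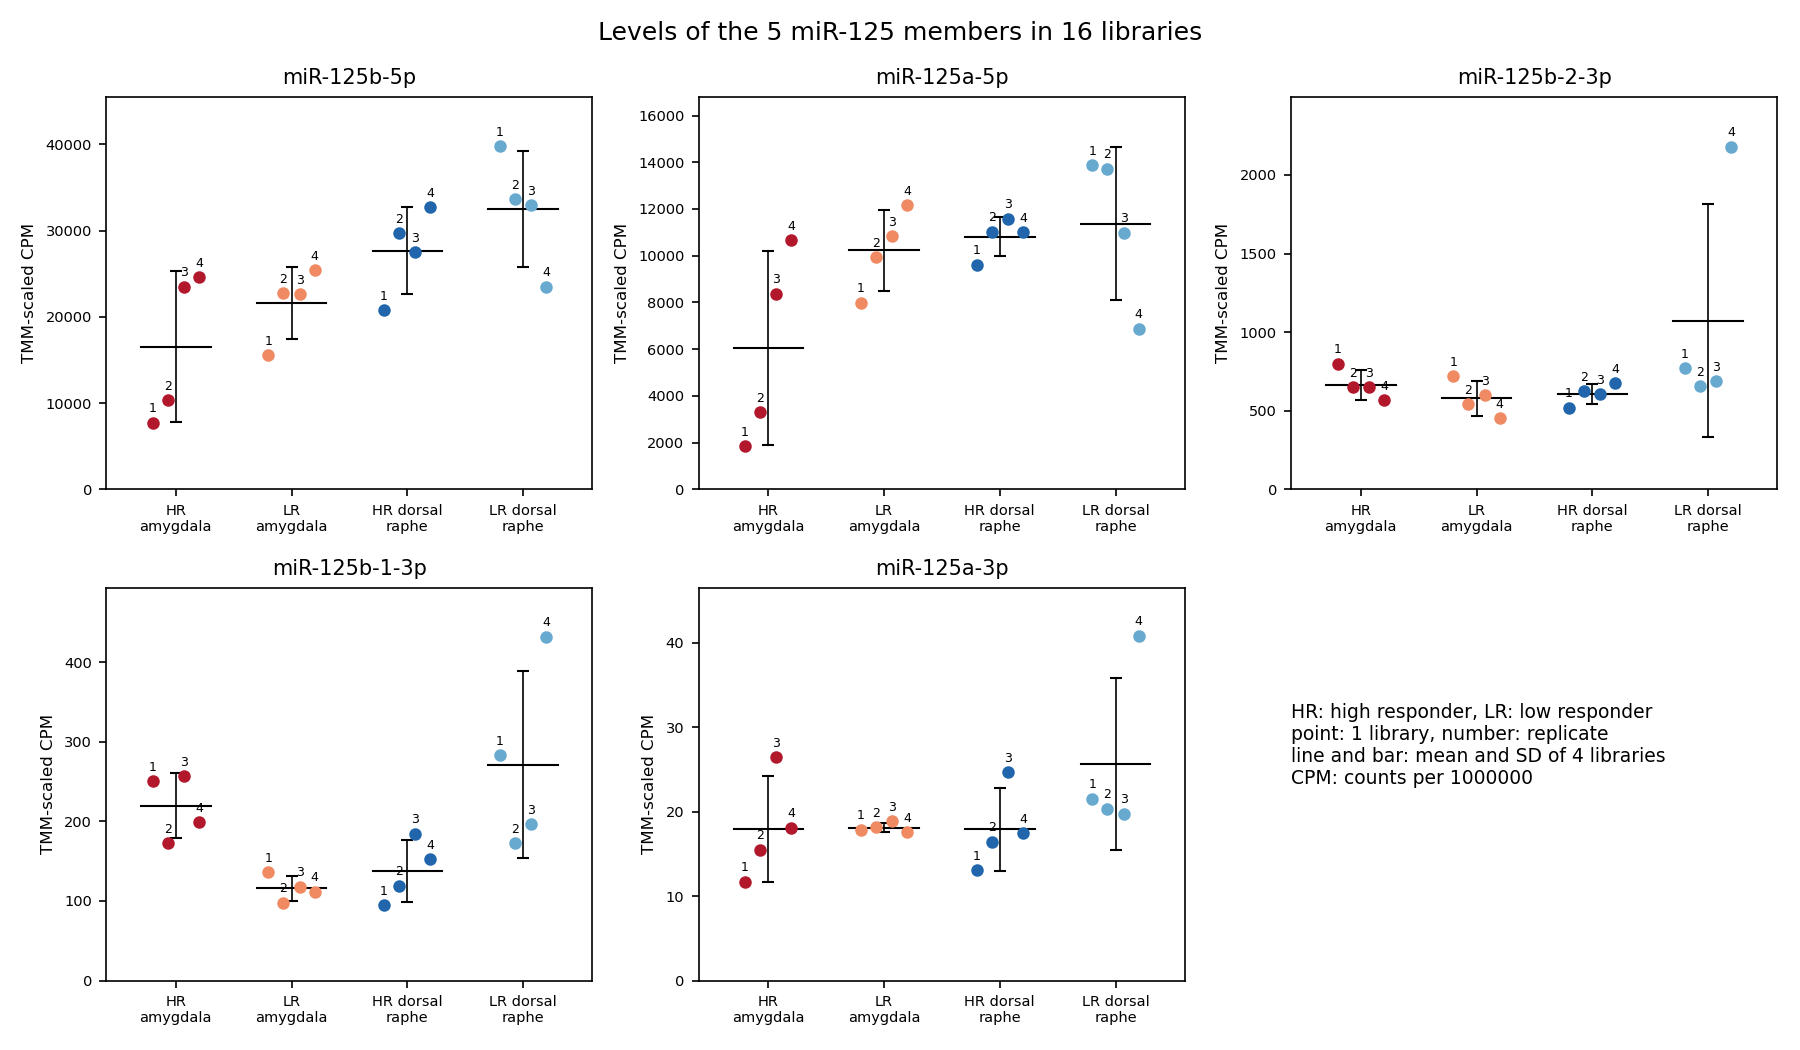
Level of each miR-125 member in the 16 libraries, in TMM-scaled CPM (vertical axis, from 0) by group (horizontal axis); points are libraries with their replicate number, and the line and bar are the mean and SD of 4. The mature arm miR-125b-5p stood at 7737 to 25379 CPM in amygdala and at 20765 to 39805 CPM in dorsal raphe, and LR dorsal raphe replicate 4 had the highest scaled level of each passenger arm, with 2179 CPM of miR-125b-2-3p; by library totals it was the highest for miR-125b-2-3p but not for the other two.

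The comparison of amygdala with dorsal raphe asks whether the family differs between the regions. miR-125b-5p fell in amygdala. It stood at 7737, 10346, 23495 and 24584 CPM in HR amygdala and 15575, 22725, 22635 and 25379 CPM in LR amygdala, against 20765, 29672, 27506 and 32699 CPM in HR dorsal raphe and 39805, 33626, 32958 and 23501 CPM in LR dorsal raphe, replicates 1 to 4 in order. The lowest values were HR amygdala replicates 1 and 2, the highest LR dorsal raphe replicates 1 to 3, and the regions overlapped. The mean was 19060 ± 6893 CPM in amygdala and 30067 ± 6084 CPM in dorsal raphe (SD, n = 8 each), and the fitted level was 1.59-fold lower in amygdala (log2 fold change -0.67, SE 0.24; adjusted p = 0.0481, edgeR's quasi-likelihood test with Benjamini-Hochberg adjustment over 639 miRNAs). In this comparison 24.3% of the miRNAs tested passed the threshold of 0.05, 14.9% lower in amygdala, and 1 of the 5 members did. The call lay close to the threshold: it was lost in 12 of the 16 fits that left out 1 library, with adjusted p-values of 0.0303 to 0.164 over the 16 and log2 fold changes of -0.73 to -0.43. Leaving out both LR dorsal raphe replicate 4 and HR amygdala replicate 1 gave -0.43 (adjusted p = 0.0617).

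The other mature arm, miR-125a-5p, did not pass the test between the regions. Its levels were 1848, 3300.2, 8365 and 10673 CPM in HR amygdala and 7985, 9933, 10830 and 12154 CPM in LR amygdala, against 9619.6, 11022, 11590 and 11012 CPM in HR dorsal raphe and 13883, 13730, 10986 and 6875 CPM in LR dorsal raphe. HR amygdala replicates 1 and 2 were again the lowest, and LR dorsal raphe replicate 4 was the lowest of its group by far. The log2 fold change of amygdala over dorsal raphe was -0.50 (SE 0.29; adjusted p = 0.206, edgeR). The 3 passenger arms had fold changes of -0.38 (miR-125b-2-3p), -0.28 (miR-125b-1-3p) and -0.23 (miR-125a-3p), with adjusted p-values of 0.256 to 0.441 in edgeR. All 5 members had a negative value and a median of -0.38, against a median of -0.08 over all 639 miRNAs. Without the pair of libraries that stand apart the 3 passenger values were 0.07, 0.03 and 0.17, so their negative sign rests on those libraries.

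Marker miRNAs of 5 of the 7 lists also included some that passed between the regions. The 7 oligodendrocyte marker miRNAs summed to 7419 to 12325 CPM in HR amygdala and 5958 to 14700 CPM in LR amygdala, against 10953 to 12998 CPM in HR dorsal raphe and 14916 to 40916 CPM in LR dorsal raphe. The 10 neuronal marker miRNAs ran the other way, with 113520 to 135610 CPM in HR amygdala and 67337 to 97377 CPM in LR amygdala, against 27829 to 50428 CPM in HR dorsal raphe and 32700 to 61184 CPM in LR dorsal raphe. Of these, 3 of 7 oligodendrocyte markers passed as lower in amygdala and 5 of 10 neuronal markers as higher. The 8 muscle markers summed to 253 to 376 CPM in HR amygdala and 227 to 408 CPM in LR amygdala, against 1355 to 1644 CPM in HR dorsal raphe and 1389 to 5092 CPM in LR dorsal raphe. Of 7 muscle markers tested 5 passed as lower in amygdala and 1 as higher. The choroid plexus markers summed to 12237 to 29005 CPM in HR amygdala and 1341 to 20803 CPM in LR amygdala, against 4069 to 7139 CPM in HR dorsal raphe and 3820 to 8234 CPM in LR dorsal raphe, with 4 of 10 higher in amygdala. Of the hindbrain markers 2 of 6 tested passed as lower, and no vascular or erythrocyte marker passed. No marker was at 0 in all libraries. The part of cell makeup in the miR-125b-5p difference was not tested.

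Within low responders the member that fell in amygdala was the passenger arm miR-125b-1-3p. It stood at 136, 97.6, 118 and 111 CPM in LR amygdala, against 283, 173, 196 and 432 CPM in LR dorsal raphe. The groups did not overlap, and replicate 4 was the highest of the dorsal raphe libraries. The fitted level was 2.34-fold lower (log2 fold change -1.23, SE 0.31; edgeR, adjusted p = 0.0141). In low responders 14.1% of all miRNAs tested passed, 10.5% lower in amygdala, and 1 of the 5 members did. Groups did not overlap for 2 members, miR-125b-1-3p and miR-125a-3p, and for 19.2% of all miRNAs tested. The miR-125a-3p groups overlapped by library totals, with 20.8 CPM in LR amygdala replicate 1 against 19.7 CPM in LR dorsal raphe replicate 3. In LR dorsal raphe replicate 4 the scaled sums of 6 of the 7 marker lists, all but erythrocyte, were also the highest of their group. By library totals this held for oligodendrocyte, vascular, muscle and hindbrain markers, and miR-125b-1-3p in that library was 257 CPM, against 184 to 307 CPM in the other 3. Without that library the log2 fold change was -0.80 (adjusted p = 0.0570 in edgeR). The call was also lost without LR amygdala replicate 2 (adjusted p = 0.0907), replicate 3 (0.0789) or replicate 4 (0.0510).

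miR-125b-2-3p in low responders had 721, 542, 598 and 452 CPM in amygdala, against 771, 654, 687 and 2179 CPM in dorsal raphe. Replicate 4 of the dorsal raphe carried most of that difference. The log2 fold change was -0.89 (SE 0.34; adjusted p = 0.0922, edgeR), -0.18 without that library and -0.53 with library totals in place of TMM. miR-125b-5p had -0.59 in low responders (SE 0.33; edgeR, adjusted p = 0.251), miR-125a-3p -0.47 and miR-125a-5p -0.15. The member median was -0.59, against -0.12 over all miRNAs.

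In high responders no member passed between the regions, where 13.1% of all miRNAs tested did. miR-125b-1-3p stood at 251, 172, 256 and 199 CPM in HR amygdala, against 95.0, 119, 185 and 152 CPM in HR dorsal raphe. Here the amygdala libraries were mostly the higher ones, although replicate 2 fell within the dorsal raphe range. The log2 fold change was 0.67 (SE 0.31; adjusted p = 0.159, edgeR's quasi-likelihood test). The mature arms had negative values, -0.74 for miR-125b-5p (SE 0.33; adjusted p = 0.152) and -0.84 for miR-125a-5p (SE 0.41; adjusted p = 0.183, both edgeR). miR-125b-2-3p and miR-125a-3p had 0.14 and 0.01. The member median was 0.01, against 0.08 over all miRNAs. In a fit without HR amygdala replicate 4, miR-125a-5p passed with -1.23 (adjusted p = 0.0412, edgeR). miR-125b-1-3p passed at 0.74 (adjusted p = 0.0415) without both libraries that stand apart, and at 0.84 (adjusted p = 0.0393) in a fit of the 8 HR libraries alone.

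**Figure D2:**
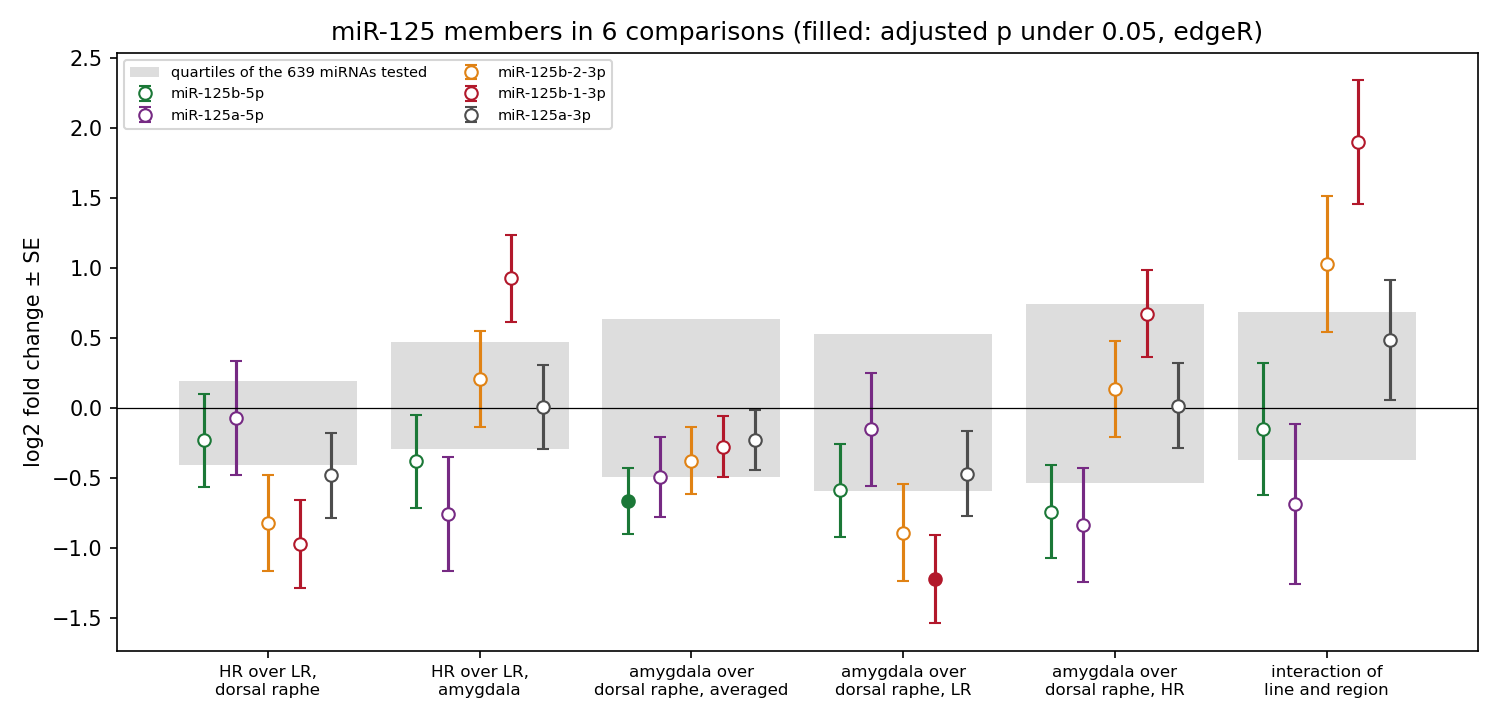
Log2 fold change of each miR-125 member (vertical axis, with its SE as a bar) in the 6 comparisons (horizontal axis), from edgeR; filled points passed an adjusted p of 0.05, and grey bands run between the quartiles of the 639 miRNAs tested. miR-125b-5p passed in the region difference averaged over the lines (-0.67) and miR-125b-1-3p in that of the low responders (-1.23).

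The line comparison asks whether high and low responders differ in the family within a region. No miRNA passed in amygdala by edgeR, so percent called was 0. At an unadjusted p under 0.05 there were 65 miRNAs, or 10.2% of 639, and DESeq2 called 19. miR-125b-1-3p stood at 251, 172, 256 and 199 CPM in HR amygdala, against 136, 97.6, 118 and 111 CPM in LR amygdala. Every HR library was above every LR library. The means were 220 ± 40.8 CPM in HR amygdala and 116 ± 15.9 CPM in LR amygdala (SD, n = 4 each). The log2 fold change was 0.92 (SE 0.31; unadjusted p = 0.0084, adjusted p = 0.291, edgeR), and 0.78 to 1.02 with 1 library left out. DESeq2 gave 0.95 with an adjusted p of 0.0390. It was the only member of 5 whose groups did not overlap, as was so for 8.76% of all miRNAs tested. The summed neuronal markers also separated these groups, with 113520 to 135610 CPM in HR amygdala and 67337 to 97377 CPM in LR amygdala, and the 10 choroid plexus markers summed to 12237 to 29005 CPM in HR and 1341 to 20803 CPM in LR amygdala. Their part in the line difference was not tested.

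The mature arms in amygdala had negative values between the lines, with a wide spread among HR libraries. miR-125b-5p averaged 16541 ± 8736 CPM in HR amygdala and 21579 ± 4200 CPM in LR amygdala (log2 fold change -0.38, SE 0.33; edgeR, adjusted p = 0.731). miR-125a-5p averaged 6047 ± 4162 CPM in HR amygdala and 10226 ± 1750 CPM in LR amygdala (-0.76, SE 0.41; edgeR, adjusted p = 0.554). HR replicates 1 and 2 lay below all LR libraries, while replicates 3 and 4 lay within the LR range. miR-125b-2-3p averaged 666 ± 95.8 CPM in HR amygdala and 578 ± 113 CPM in LR amygdala (0.20, SE 0.34; edgeR, adjusted p = 0.823). miR-125a-3p averaged 17.9 ± 6.25 CPM in HR amygdala and 18.1 ± 0.559 CPM in LR amygdala. Its log2 fold change of 0.00 had an SE of 0.30. The member median was 0.00, against 0.07 over all miRNAs.

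In dorsal raphe the line difference of miR-125b-1-3p had the other sign. The levels were 95.0, 119, 185 and 152 CPM in HR dorsal raphe, against 283, 173, 196 and 432 CPM in LR dorsal raphe. The groups overlapped only through LR replicate 2 and HR replicate 3. The log2 fold change was -0.97 (SE 0.31; unadjusted p = 0.0060, adjusted p = 0.358, edgeR), which was place 5 of 639 by p, and -0.54 without LR replicate 4. By edgeR no miRNA passed, so percent called was 0, with 70 miRNAs (11.0%) at an unadjusted p under 0.05. miR-125b-2-3p had 520, 622, 606 and 675 CPM in HR dorsal raphe, against 771, 654, 687 and 2179 CPM in LR dorsal raphe. Its log2 fold change of -0.82 (SE 0.34; adjusted p = 0.370, edgeR) became -0.09 without LR replicate 4 and -0.41 with library totals in place of TMM.

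The other members were closer between the lines in dorsal raphe. miR-125b-5p averaged 27660.3 ± 5066 CPM in HR and 32473 ± 6729 CPM in LR dorsal raphe (log2 fold change -0.23, SE 0.33). miR-125a-5p averaged 10811 ± 839 CPM in HR and 11368 ± 3278 CPM in LR dorsal raphe (-0.07, SE 0.40). miR-125a-3p averaged 17.9 ± 4.91 CPM in HR and 25.6 ± 10.2 CPM in LR dorsal raphe (-0.48, SE 0.30). edgeR's adjusted p-values for these 3 were 0.721 to 0.991. All 5 members had negative values with a median of -0.48, against -0.06 over all miRNAs. Without LR replicate 4 all 5 were still negative, but miR-125a-3p had -0.067 and the member of middle rank, miR-125a-5p, -0.12. The order of the group means of miR-125b-1-3p was thus LR dorsal raphe (271 ± 117 CPM), HR amygdala, HR dorsal raphe (138 ± 39.2 CPM) and LR amygdala, from high to low, and each group overlapped its neighbour in this order.

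The interaction tests whether the line difference itself changes with the region. For miR-125b-1-3p the log2 line difference was higher in amygdala than in dorsal raphe by 1.90 (SE 0.44; unadjusted p = 0.00044, adjusted p = 0.141, edgeR). This was place 2 of 639 by p. The value ran from 1.44 to 1.95 with 1 library left out, and edgeR's adjusted p from 0.119 to 0.391. DESeq2 gave 1.80 with an adjusted p of 0.0044. edgeR called no miRNA for the interaction, so percent called was 0, with 81 (12.7%) at an unadjusted p under 0.05. DESeq2 called 22. The remaining members had 1.03 (miR-125b-2-3p, SE 0.48), 0.49 (miR-125a-3p), -0.69 (miR-125a-5p) and -0.15 (miR-125b-5p), with adjusted p-values of 0.382 to 0.949 in edgeR. Without LR dorsal raphe replicate 4 the value was 0.26 for miR-125b-2-3p and 0.041 for miR-125a-3p. The member median was 0.49, against 0.09 over all miRNAs.

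Ratios within a library do not depend on scaling between libraries. The level of miR-125b-2-3p over miR-125b-1-3p sets the output of the Mir125b2 gene beside that of Mir125b1, as far as passenger arms report it. It was 3.18, 3.77, 2.53 and 2.85 in HR amygdala, against 5.31, 5.55, 5.08 and 4.05 in LR amygdala. Every HR library was below every LR library. Among 263 ratios of a 3p over its 5p arm, tested below, the amygdala groups did not overlap for 9.13%. For ratios between other miRNAs no such share was computed. The miR-125b-1-3p counts used here are those whose amygdala groups did not overlap, so the ratio is not a separate result. The difference of the mean log2 ratios was -0.70, or 1.63-fold lower in HR amygdala (exact two-sided permutation p = 0.0286, the smallest that 4 against 4 libraries allow; 0.0857 adjusted over 6 such tests). That test was unpaired. With same-numbered amygdala libraries as pairs, the exact p from permuting signs was above 0.05, as given further below. In dorsal raphe the ratio was 5.47, 5.23, 3.28 and 4.43 in HR libraries, against 2.72, 3.79, 3.50 and 5.05 in LR libraries. These overlapped, with a log2 difference of 0.30 (exact permutation p = 0.286, 0.429 adjusted). Between the regions the log2 difference was -0.07 (exact permutation p = 0.739, with labels permuted within each line and 0.000408 the smallest possible).

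The ratio of the mature arms, miR-125b-5p over miR-125a-5p, separated the amygdala groups too. It was 4.19, 3.14, 2.81 and 2.30 in HR amygdala, against 1.95, 2.29, 2.09 and 2.09 in LR amygdala. All HR libraries were above all LR libraries, with 2.30 and 2.29 the nearest pair. The log2 difference was 0.53, or 1.45-fold higher in HR (exact permutation p = 0.0286, 0.0857 adjusted over the 6 tests), and 0.38 without HR amygdala replicate 1. This test was unpaired too, and with pairs the exact p from permuting signs was again above 0.05. HR dorsal raphe had 2.16, 2.69, 2.37 and 2.97, against 2.87, 2.45, 3.00 and 3.42 in LR dorsal raphe. There the log2 difference was -0.20 (exact permutation p = 0.2, two-sided). Between the regions it was -0.10 (exact permutation p = 0.502).

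**Figure D3:**
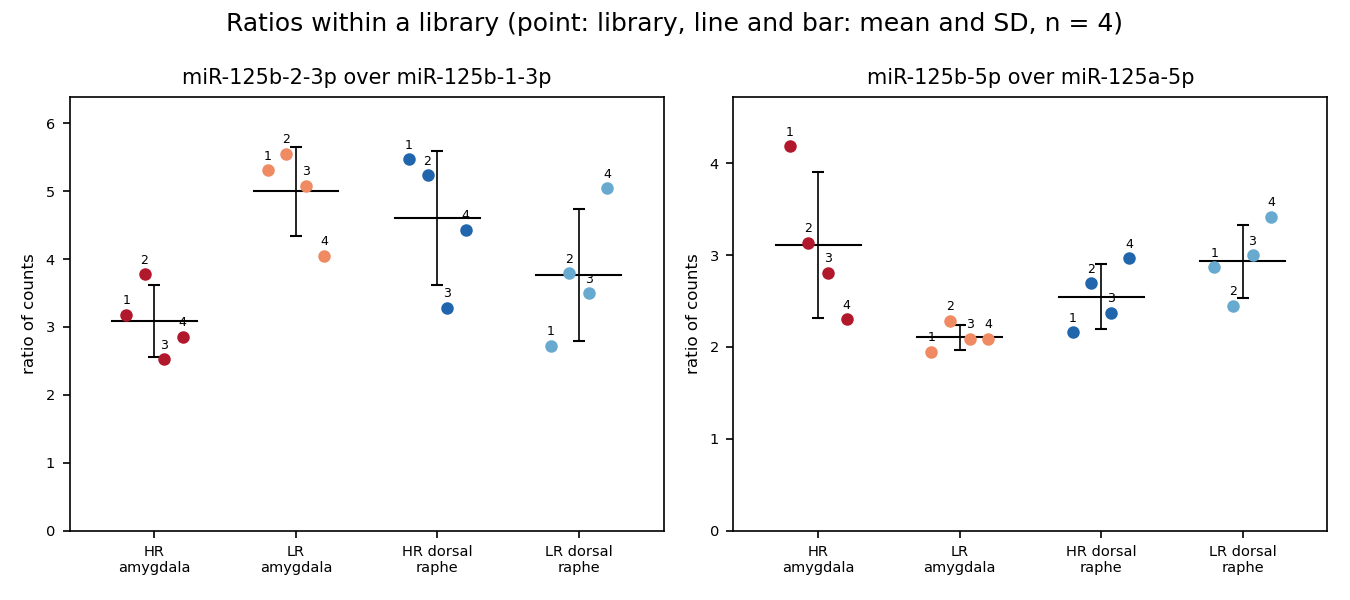
Ratio of the counts of the miR-125b passenger arms (left) and of the mature arms (right) in the 16 libraries, on a linear axis from 0; points are libraries with their replicate number, and the line and bar are the mean and SD of 4. In amygdala the passenger ratio was 2.53 to 3.77 in HR and 4.05 to 5.55 in LR libraries, and the mature ratio 2.30 to 4.19 in HR and 1.95 to 2.29 in LR libraries.

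Passenger arms were set over mature arms as 3p counts per 1000 5p counts. Since miR-125b-5p is shared by both genes, each miR-125b ratio understates the ratio of its own hairpin. miR-125b-2-3p over miR-125b-5p was 103, 62.8, 27.6 and 23.1 in HR amygdala and 46.3, 23.8, 26.4 and 17.8 in LR amygdala, against 25.0, 21.0, 22.0 and 20.7 in HR dorsal raphe and 19.4, 19.4, 20.8 and 92.7 in LR dorsal raphe. miR-125b-1-3p over miR-125b-5p was 32.4, 16.6, 10.9 and 8.10 in HR amygdala and 8.73, 4.29, 5.20 and 4.39 in LR amygdala, against 4.57, 4.01, 6.71 and 4.66 in HR dorsal raphe and 7.12, 5.13, 5.95 and 18.4 in LR dorsal raphe. miR-125a-3p over miR-125a-5p was 6.34, 4.70, 3.16 and 1.70 in HR amygdala and 2.24, 1.83, 1.74 and 1.45 in LR amygdala, against 1.36, 1.49, 2.13 and 1.58 in HR dorsal raphe and 1.55, 1.48, 1.80 and 5.94 in LR dorsal raphe. HR amygdala replicates 1 and 2 and LR dorsal raphe replicate 4 were the 3 highest libraries in all 3 pairs.

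**Figure D4:**
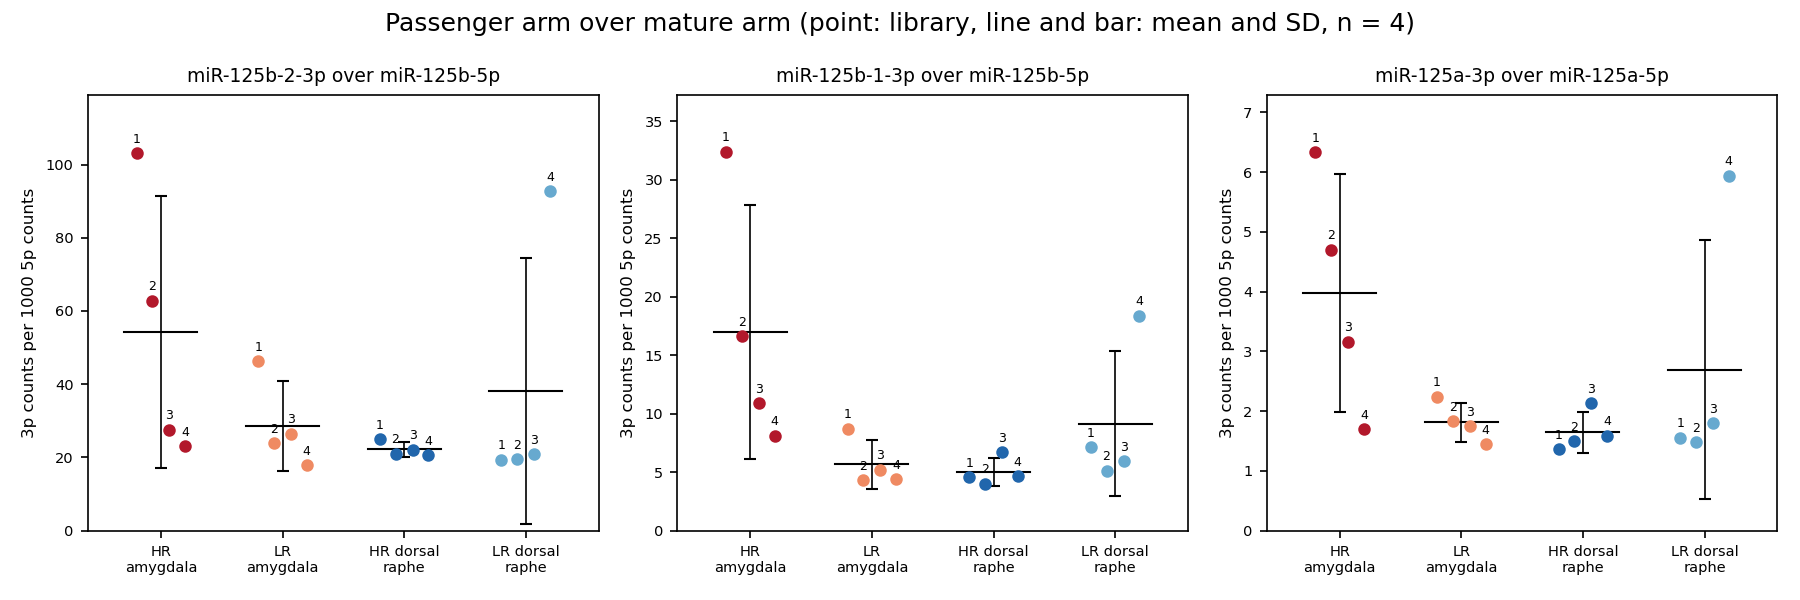
Passenger over mature arm as 3p counts per 1000 5p counts (vertical axis, from 0) by group for the 3 miR-125 arm pairs; points are libraries with their replicate number, and the line and bar are the mean and SD of 4. HR amygdala replicate 1 was the highest library in each pair, with 103, 32.4 and 6.34.

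The arm ratios were tested with limma on log2 ratios over the 263 arm pairs in which both arms passed the count filter. None of the 3 miR-125 pairs passed in the line difference of either region or in the region difference averaged over lines. Region differences within a line and the interaction were not tested for arm ratios. In amygdala between the lines, where 4 pairs (1.52%) passed, miR-125b-1-3p over miR-125b-5p was higher in HR by 1.45 on the log2 scale (SE 0.46; adjusted p = 0.142, limma), place 12 of 263 by p. The values of the other pairs were 1.00 for miR-125a (SE 0.46; limma adjusted p = 0.322) and 0.75 for miR-125b-2 (SE 0.55; limma adjusted p = 0.544). Without HR amygdala replicate 1 the 3 values were 1.07 for miR-125b-1, 0.71 for miR-125a and 0.35 for miR-125b-2. The median over all 263 pairs was -0.10. In dorsal raphe the line differences were -0.70, -0.46 and -0.40 for miR-125b-1, miR-125a and miR-125b-2, with limma adjusted p-values of 0.972 to 0.994. Without LR replicate 4 these were -0.30, 0.014 and 0.15. In dorsal raphe percent called was 0, and limma had 3 pairs (1.14%) at an unadjusted p under 0.05. Between the regions, where 4.94% of pairs passed, the 3 differences were 0.41 to 0.52 (limma adjusted p-values of 0.359 to 0.499). They were 0.65 to 0.73 without LR dorsal raphe replicate 4 and 0.25 to 0.33 without HR amygdala replicate 1.

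The mean log2 ratio of 3p over 5p was -8.83 for miR-125a, -7.06 for miR-125b-1 and -5.07 for miR-125b-2, places 18, 29 and 54 of 263 from the pair with the greatest excess of the 5p arm. In 148 pairs the 5p arm was the more abundant one and in 115 the 3p arm. By the size of the log2 ratio in either direction the places were 28, 47 and 98, and the median size over all pairs was 3.72.

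The libraries with high passenger ratios were 3 of the 4 shallowest. HR amygdala replicates 1 and 2 had 1741167 and 2561377 counts and LR dorsal raphe replicate 4 had 2096188. HR dorsal raphe replicate 1, with 2419326 counts, was as shallow. Within its group its miR-125b-2 ratio (25.0 per 1000) was the highest and its miR-125a ratio (1.36) the lowest. Its miR-125b-1 ratio (4.57) lay in between. These ratios lay below their means over all libraries, which the 3 high libraries raise. The miR-125 ratios exceeded those means by 1.56 to 2.12 in HR amygdala replicate 1, by 1.08 to 1.16 in replicate 2 and by 1.299 to 1.64 in LR dorsal raphe replicate 4, on the log2 scale. Over the other 260 pairs, taking the less abundant arm over the more abundant, the median deviation in these libraries was 0.48, 0.28 and 0.00, and -0.19 to 0.19 in the rest. The part of depth or RNA quality in the miR-125 ratios was not tested.

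**Figure D5:**
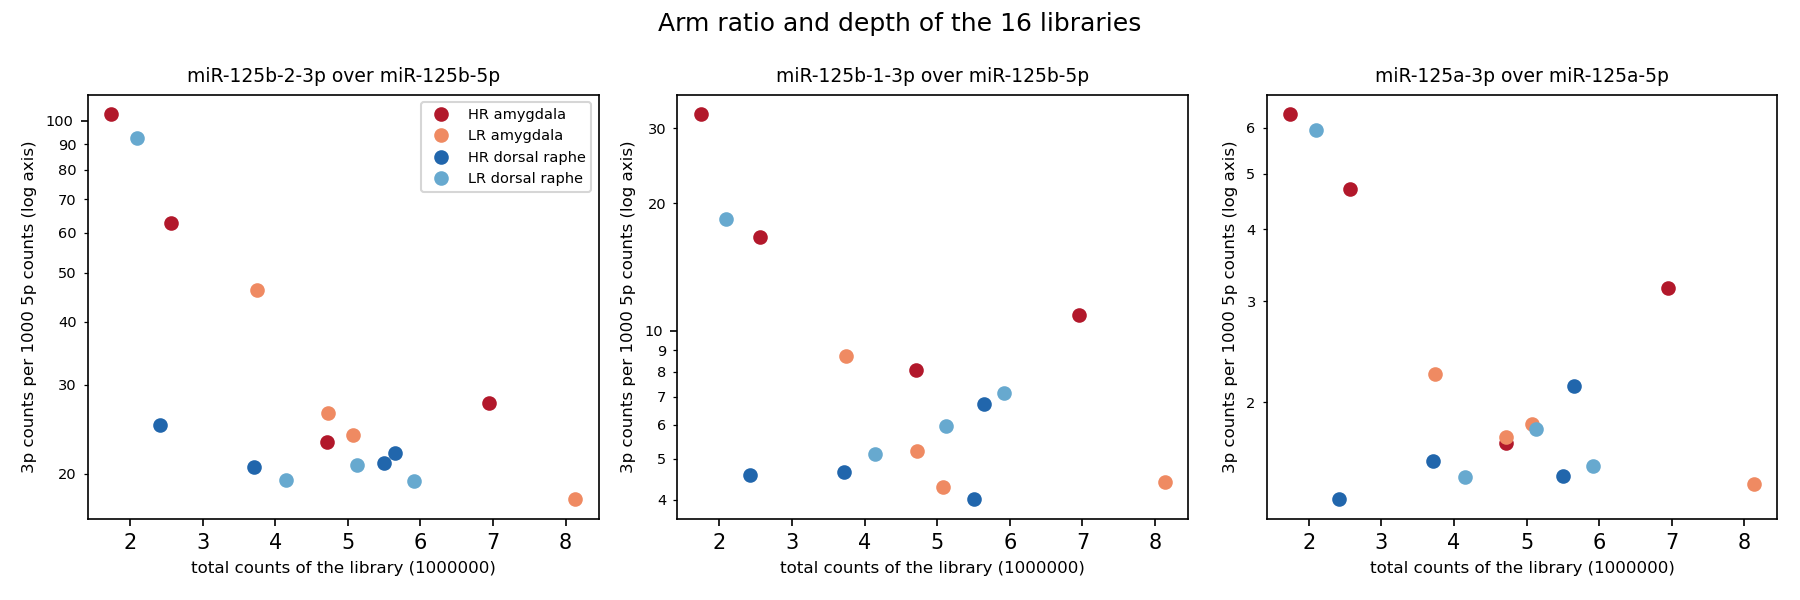
Passenger over mature arm (3p counts per 1000 5p counts, log axis) against the total counts of the library (in 1000000) for the 3 miR-125 arm pairs; each point is 1 of the 16 libraries, coloured by group. HR amygdala replicates 1 and 2 and LR dorsal raphe replicate 4, with 1741167, 2561377 and 2096188 counts, had the highest ratios, and HR dorsal raphe replicate 1, with 2419326 counts, did not.

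Across the 16 libraries the mature arms went together, and miR-125b-5p did not go with its own passenger arms. The Pearson correlation of log2 CPM was 0.93 between miR-125b-5p and miR-125a-5p, and 0.77 between miR-125b-1-3p and miR-125b-2-3p. Between miR-125b-5p and its own passenger arms it was -0.02 for miR-125b-1-3p and -0.07 for miR-125b-2-3p. With group means taken out, these were -0.09 and -0.45. Between miR-125a-5p and miR-125a-3p the correlation was 0.34, and 0.29 with group means taken out. The miRNAs most like miR-125b-5p, among 402 others with a mean of at least 10 CPM, were miR-154-5p (0.963), miR-185-5p (0.963), miR-434-3p (0.961), miR-3068-5p (0.955) and miR-210-3p (0.948). Those most like miR-125a-5p were miR-145-5p (0.972), miR-503-5p (0.970), miR-30c-5p (0.960), let-7b-5p (0.959) and let-7c-5p (0.958). These are descriptions over 16 libraries that share groups, depth and scaling. HR amygdala replicates 1 and 2 had the lowest levels of both mature arms. No correlation was computed without them or without LR dorsal raphe replicate 4, the libraries with the highest passenger over mature ratios.

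miR-351-5p, the relative with the same seed, averaged 179 ± 34.0 CPM in HR amygdala and 146 ± 9.83 CPM in LR amygdala, against 133 ± 20.7 CPM in HR dorsal raphe and 195 ± 28.2 CPM in LR dorsal raphe. In dorsal raphe all HR libraries (109 to 159 CPM) were below all LR libraries (168 to 235 CPM). Groups did not overlap, in either direction, for 4.23% of miRNAs tested. The log2 fold change was -0.55 (SE 0.24; adjusted p = 0.387, edgeR). By library totals the groups overlapped, with 140 CPM in LR replicate 4 against 163 and 166 CPM in HR replicates 1 and 4.

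The genomic neighbours of the family include miR-99, miR-100 and let-7 miRNAs. let-7 is known as a brake on the growth of progenitor cells, and miR-99 and miR-100 as repressors of mTOR. Of 13 listed miRNAs named miR-99a, miR-99b, miR-100, let-7a, let-7c or let-7e, 13 were tested. Taken by name, they include let-7c-2-3p, although the neighbour of Mir125b2 is Mirlet7c1. Counts of let-7a-5p and let-7c-5p may also include other let-7 genes. None of the 13 passed in either line comparison, in the region difference of high responders or in the interaction. For the region difference averaged over lines 1 of the 13 passed, lower in amygdala, where 14.9% of all miRNAs tested did. It was miR-100-3p (-0.79, SE 0.20; adjusted p = 0.0076, edgeR), with a mean of 7.67 CPM. In low responders 2 of the 13 passed, both lower, beside 10.5% of all miRNAs tested: miR-100-3p (-0.89; edgeR adjusted p = 0.0392) and miR-100-5p (-1.75, SE 0.56; edgeR adjusted p = 0.0451). miR-100-5p had 7812 to 10059.7 CPM in LR amygdala, against 10479 to 87757 CPM in LR dorsal raphe with a median of 11624. Without LR dorsal raphe replicate 4 its log2 fold change was -0.20 (edgeR adjusted p = 0.629), and miR-100-3p had -0.83 (0.0698). Over the 16 fits that left out 1 library, the miR-100-5p call in low responders was lost in 13 and the miR-100-3p call in 15. Reads of miR-99a-5p and miR-100-5p, whose sequences are near-identical, may have been split between them.

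Of the 6 neighbour 5p arms in amygdala, miR-99a, miR-100 and miR-99b had the opposite sign to the mature miR-125 arms and the 3 let-7 arms had the same sign. The log2 line difference there was 0.95 for miR-99a-5p (SE 0.22; adjusted p = 0.126), 0.81 for miR-100-5p (0.700) and 1.07 for miR-99b-5p (0.598), all by edgeR. For let-7a-5p, let-7c-5p and let-7e-5p it was -0.34, -0.51 and -0.49, with edgeR adjusted p-values of 0.659 to 0.682. In dorsal raphe the line differences were -0.05 for miR-99a-5p, -1.66 for miR-100-5p and -1.63 for miR-99b-5p. For the 3 let-7 miRNAs they were -0.19, 0.01 and -0.28. edgeR's adjusted p was 0.358 for both miR-100-5p and miR-99b-5p, and the highest LR library carried most of both differences. miR-100-5p had a median of 11624 and a highest value of 87757 CPM in LR, against 8345 to 11003 CPM in HR. For miR-99b-5p these were 3876 and 33617 CPM in LR, against 2965 to 3971 CPM in HR. The median over the 13 was 0.13 in amygdala and -0.09 in dorsal raphe, near the medians of 0.07 and -0.06 over all miRNAs.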

How the data were processed

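The deposited values were counts per mature miRNA for 722 rat miRNAs in each of 16 libraries. RNA was extracted with miRNeasy kits and libraries were size-selected, per the labels' protocols. Per the submitters' processing notes, cutadapt 1.3.1, Bowtie2 (no version named) and bedtools 2.14.2 were used. Genome build, annotation and the handling of multi-mapping reads: not given in the sources used here. No coordinates are printed for that reason, and reads of the similar miR-125a-5p and miR-125b-5p may have been shared out between them.

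Counts were used as deposited. filterByExpr (minimum count 10, minimum total 15) kept 639 miRNAs, and the dropped ones held at most 0.0169% of a library. The line difference (HR over LR), the region difference (amygdala over dorsal raphe) and their interaction were tested with the quasi-likelihood test of edgeR 4.0.16 (R 4.3.3), in 1 model of 4 group means with robust moderation. Adjusted p-values are Benjamini-Hochberg over all 639, with a threshold of 0.05. Arm ratios were tested with limma 3.58.1 on log2 ratios with a pseudocount of 0.5, over 263 of the 306 arm pairs listed. Ratios of 2 members were tested by exact two-sided permutation. The edgeR and limma steps were tested on simulated data. DESeq2 1.42.0, library totals, no filter, fits of only the groups compared, replicate blocks and fits without libraries were the alternatives.

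Over 120 pairs of libraries, chi-square divided by its degrees of freedom was at least 55.4, which leaves no copied library. Replicate numbers come from the labels, which do not say what they stand for. Same-numbered HR and LR amygdala libraries deviated together from their group means (correlations across miRNAs of 0.688, 0.290, 0.212 and 0.509, all above 0.1), and the numbers were taken to pair them. In each other pairing of groups at least 1 correlation was under 0.1, although HR amygdala with HR dorsal raphe had 0.675, -0.275, 0.353 and 0.531. Differently numbered libraries were not correlated, so whether the numbers mark pairs was not tested. The main tests left the libraries unpaired.

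Named were the 5 members, miRNAs with the seed of miR-125b-5p, the neighbours' counts with their 5p arms and those past the threshold (miR-100-3p, under the 10 CPM minimum of that rule, was named after its values were seen), and the 5 miRNAs most correlated with each mature arm. Members, lists and tests were chosen with earlier results of these data known.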

Additional observations from a re-analysis of the deposited data

Results flagged for a closer look

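In 4 of the 40 groups of 4 libraries examined (5 member levels, 3 arm ratios and 2 ratios of members, in each group), 1 library lay far from the other 3, where chance alone gives about 1 in 20. All 4 were LR dorsal raphe replicate 4. The flagged levels are also the numerators of the flagged arm ratios. The 4 are therefore not separate, and their number cannot be set against the chance rate. miR-125a-3p stood at 40.8 CPM in that library and at 19.8 to 21.5 CPM in the other 3. Without TMM scaling the gap was small, with 24.3 CPM against 19.7 to 23.3 CPM. miR-125b-2-3p stood at 2179 CPM, against 654 to 771 CPM. Without TMM scaling this was 1298 CPM, against 685 to 835 CPM. miR-125a-3p over miR-125a-5p was 5.94 per 1000, against 1.48 to 1.80, and miR-125b-2-3p over miR-125b-5p was 92.7 per 1000, against 19.4 to 20.8. In the same library the scaled marker sums were 40916 CPM for oligodendrocyte, 119379 CPM for vascular, 5092 CPM for muscle, 3935 CPM for hindbrain, 61184 CPM for neuronal and 8234 CPM for choroid plexus miRNAs, each the highest of its group. By library totals the neuronal and choroid plexus sums, 36441 and 4904 CPM, were not. Their part in the values of the family was not tested.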

How the results depend on the processing

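Of the 5 members, DESeq2 called 1 in the amygdala line difference and 1 in the interaction (miR-125b-1-3p in both), where edgeR called 0. Without the count filter the averaged region difference had 0 called in place of 1. In fits of only the groups compared, 0 were called between the regions in low responders (edgeR with all groups, 1) and 1 in high responders (0). Without both LR dorsal raphe replicate 4 and HR amygdala replicate 1 the region counts were 0 (averaged), 0 (low responders) and 1 (high responders). With 1 library left out they ran from 0 to 1 in each of these 3, and were 0 for both line differences and the interaction. The log2 difference of miR-125b-2-3p over miR-125b-1-3p between regions ran from -0.14 to 0.010. The causes were not tested. The replicate block ties same-numbered libraries of all 4 groups, not only those of amygdala. With it 1 member was called in the averaged region difference, 1 in low responders and 0 elsewhere, and no arm ratio. This block thus changed no call, which does not test the amygdala pairing by itself. Permuting signs within the 4 amygdala pairs gave an exact p of 0.125 for both ratios of members, the smallest that 4 pairs allow. A block in the amygdala libraries alone, chosen after seeing the data, gave 0 as well.

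These signs turned, and no value named here passed the test in either fit. miR-125a-5p between lines in dorsal raphe was 0.032 by DESeq2, 0.080 by library totals and 0.040 in the 2 groups alone. miR-125a-3p between lines in amygdala was -0.12 by library totals, -0.033 in the 2 groups alone, -0.057 with the block and -0.075 with the amygdala block. In high responders between regions it was -0.18 by library totals, -0.018 without the filter and -0.0048 with the block, and miR-125b-2-3p was -0.011 by library totals. Without the pair of libraries that stand apart, miR-125a-3p, miR-125b-1-3p and miR-125b-2-3p had 0.17, 0.029 and 0.066 between regions, miR-125a-3p 0.053 in low responders, miR-125b-5p 0.11 in the interaction, and the dorsal raphe line differences of the miR-125a and miR-125b-2 arm ratios were 0.014 and 0.15. With 1 library left out, signs turned for miR-125a-5p between lines in dorsal raphe (-0.12 to 0.078) and between regions in low responders (-0.21 to 0.046), miR-125a-3p between lines in amygdala (-0.30 to 0.13) and between regions in high responders (-0.26 to 0.26), and the miR-125a (-0.66 to 0.014) and miR-125b-2 (-0.60 to 0.15) arm ratios between lines in dorsal raphe. Depth limits miR-125a-3p most, with 22 to 160 counts per library.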
